A study of Mus musculus with 61 samples.

Results

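Gp130-deficient hepatocytes at 3 h of IL-6 were set against gp130-deficient hepatocytes at 0 h, to see which transcripts moved when the receptor that carries the IL-6 signal was missing. These were 11 of the 61 arrays of the series, 5 at 3 h and 6 at 0 h, and they are defined by genotype and time. The gp130- cells came from C57BL/6 mice with the genotype alb-cre tg; gp130flox/flox, in which Cre under the albumin promoter deletes the floxed gp130 gene (Il6st) in hepatocytes. The controls, gp130flox, were littermates with the floxed gene and no Cre. All cultures went overnight without serum, and those taken at 1, 3, 6 and 12 h had received 200 ng/mL IL-6, against 0 ng/mL at 0 h. No culture went 3 h without IL-6, so IL-6 and the hours in culture cannot be told apart. The arrays of one genotype that carry the same number in the deposited columns are called a preparation here. For gp130-, preparations 2, 3, 4, 6 and 9 had an array at 3 h and preparations 2, 3, 4, 6, 7 and 9 had one at 0 h. Nothing in the labels says what a number stands for, so the spread that the p-values measure may be technical. In the main linear model that spread comes from all 61 arrays, over both genotypes and all times, and not from these 11 alone.

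Il6st, the deleted gene, was low as labelled. Its log2 signal at 3 h was 5.20 ± 0.60 in gp130- (SD, n = 5) and 6.78 ± 0.28 in gp130flox (SD, n = 6; exact permutation test, two-sided, p = 0.00216). At 0 h it was 5.56 ± 0.36 in gp130- (SD, n = 6) and 6.27 ± 0.28 in gp130flox (SD, n = 7; exact permutation test, two-sided, p = 0.00233). At 3 h the highest gp130- array (6.15) was below the lowest gp130flox array (6.39), while at 0 h the genotypes overlapped (5.99 in gp130- and 5.91 in gp130flox). Within gp130- its difference at 3 h against 0 h was -0.29 (limma, adjusted p = 0.680).

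IL-6 binds its own receptor chain and then gp130, which activates Janus kinases and the transcription factor STAT3, and in hepatocytes this drives acute phase genes and the feedback inhibitor Socs3. Interferons use other receptors but also Janus kinases. Promoters of genes that interferons induce often hold a short palindrome called GAS or an element called ISRE, which interferon regulatory factors bind. Among the genes that interferons induce are Irf1, the immunity-related GTPases that act on vacuoles of intracellular microbes, and the subunits of the immunoproteasome.

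In gp130- hepatocytes 5 of 12157 tested genes changed at 3 h, which is 0.0411% of the genes tested. A gene was called when limma gave a Benjamini-Hochberg adjusted p under 0.05 and the fold was over 1.5, and every value of a gene at 3 h against 0 h without another unit is a log2 change. Of the 4 genes that rose, Irgm2, Igtp and Tgtp1 encode immunity-related GTPases and Irf1 encodes an interferon regulatory factor. Abcc4, which encodes an exporter of organic anions and cyclic nucleotides, was the gene that fell. At an unadjusted p under 0.05 and the same fold, 24 genes were higher and 16 lower. All 4 genes that rose lie on mouse chromosome 11 and belong to the list of interferon response genes. The share of all tested genes on that chromosome was not counted, and Irgm2 and Igtp lie close together on it.

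The windows before the starts of these 4 genes are shown because they carry the letters of the motifs named above. Each is 250 bases of RefSeq sequence (GRCm38.p6), 5′ to 3′ on the strand of the gene and ending at the base before the annotated start, with matches in capitals, searched on both strands. GAS was searched as TTCNNNGAA, where N is any base, and the core of the ISRE as GAAA, any 2 bases and GAAA again. The window of Irgm2 is chr11:58214727-58214976 (plus strand), that of Igtp is chr11:58199306-58199555 (plus strand), that of Tgtp1 is chr11:48992247-48992496 (minus strand) and that of the first Irf1 start is chr11:53769764-53770013 (plus strand).
Irgm2: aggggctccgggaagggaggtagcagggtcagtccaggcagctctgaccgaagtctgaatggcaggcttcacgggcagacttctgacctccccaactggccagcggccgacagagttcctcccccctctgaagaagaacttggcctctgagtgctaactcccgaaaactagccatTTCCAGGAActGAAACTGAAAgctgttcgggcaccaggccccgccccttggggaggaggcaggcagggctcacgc
Igtp: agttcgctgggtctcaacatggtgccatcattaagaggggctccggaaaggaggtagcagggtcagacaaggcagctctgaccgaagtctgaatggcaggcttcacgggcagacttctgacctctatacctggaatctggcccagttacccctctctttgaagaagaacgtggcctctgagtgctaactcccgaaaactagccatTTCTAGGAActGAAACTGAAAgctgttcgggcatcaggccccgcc
Tgtp1: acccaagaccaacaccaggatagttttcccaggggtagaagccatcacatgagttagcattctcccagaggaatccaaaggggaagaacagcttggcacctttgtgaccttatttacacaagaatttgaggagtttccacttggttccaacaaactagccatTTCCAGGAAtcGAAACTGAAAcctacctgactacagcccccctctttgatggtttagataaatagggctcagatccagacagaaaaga
Irf1: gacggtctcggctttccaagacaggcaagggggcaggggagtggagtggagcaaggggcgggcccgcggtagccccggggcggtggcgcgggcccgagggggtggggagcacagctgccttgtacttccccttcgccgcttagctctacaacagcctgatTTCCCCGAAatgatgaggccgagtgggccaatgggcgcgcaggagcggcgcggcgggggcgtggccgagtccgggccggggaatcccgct

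In Irgm2, Igtp and Tgtp1 the GAS letters stood directly before the ISRE letters, with 2 bases between them. Of 32851 windows of the same length in the RefSeq table, 7.02% held GAS, 2.98% the ISRE core and 0.332% both. The joined arrangement, GAS, any 2 bases and the ISRE core, defined after these windows had been read, was in 5 of the 32851 windows (0.0152%), all on chromosome 11. Those 5 belonged to Irgm2, Igtp, Tgtp1, its near copy Tgtp2 and Gm12185. Irgm2 and Igtp shared an unbroken run of 55 bases, so their windows are not independent examples. The longest run that Tgtp1 shared was 20 bases with Irgm2 and 14 with Igtp, against 7 between Irf1 and each of these genes. The window of Tgtp1 may therefore not be independent of the others either. The first window of Irf1 held GAS alone, and no match was in the window of its second start or in either window of Abcc4. Such letters were not particular to the called genes. Of the 31 tested interferon response genes with a window, 21 held GAS or the ISRE core, 4 of them called and 17 not, in 21 of 38 windows (55.3%), against 9.66% of all windows. Neither was in the windows of Psmb9, Tap1, Irf9 and Ifi47, on the same list, or of Psmb10, which is not on it. These are matches of letters, and binding was not measured.

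Irgm2 encodes a GTPase that guards host membranes. Its log2 signal at 3 h was 10.26, 11.08, 10.44, 10.34 and 9.77 in gp130- preparations 2, 3, 4, 6 and 9, against 8.25, 9.02, 7.16, 10.01, 10.56 and 9.98 at 0 h in preparations 2, 3, 4, 6, 7 and 9. The signal at 3 h ran from 9.77 to 11.08, and that at 0 h from 7.16 to 10.56. The 0 h arrays of preparations 2, 3 and 4 were the low ones, while the groups as a whole overlapped. With the preparation as a block the change was 1.47 ± 0.28 (log2, SE; adjusted p = 0.0238).

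Igtp, another GTPase of the family, gave 9.31, 10.23, 10.58, 10.40 and 9.92 at 3 h, against 7.84, 8.35, 7.15, 10.02, 10.55 and 9.85 at 0 h, in the same order of preparations. Its pattern was that of Irgm2, with the 0 h arrays of preparations 6, 7 and 9 inside the range of the 3 h arrays or close to it, and it rose by 1.38 ± 0.28 (log2, SE; adjusted p = 0.0326). Tgtp1, a T-cell specific GTPase in name, was near background. Its signal at 3 h was 5.68, 6.81, 6.82, 4.68 and 4.26, and its probe was detected on 4 of 5 arrays, all but that of preparation 9. At 0 h the signal was 4.35, 4.49, 4.28, 4.29, 4.24 and 4.22, with the probe detected on 1 of 6 arrays, that of preparation 3. Tgtp1 rose, with a fitted change of 1.32 ± 0.27 (log2, SE; adjusted p = 0.0356) that takes undetected signals at their measured values, as do all its fitted changes here. With each undetected 0 h array set to its lowest detected signal, the group means gave a change of at least 2.07-fold. Whether its probe tells Tgtp1 from the near copy Tgtp2 was not tested.

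Irf1, the transcription factor of the group, had log2 signals of 10.12, 10.84, 11.82, 10.13 and 10.06 at 3 h, against 8.62, 9.23, 9.24, 10.01, 9.98 and 9.80 at 0 h. The lowest 3 h array (10.06) was just above the highest 0 h array (10.01), while the groups of the other genes that rose overlapped. How many of all genes had no overlap was not counted. Irf1 rose by 1.22 ± 0.23 (log2, SE, limma adjusted p = 0.0238). Irf1 had 5 probes past the detection filter, and their changes lay between 0.91 and 1.33 on the log2 scale. Irgm2, Igtp, Tgtp1 and Abcc4 had 1 probe each.

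**Figure D1:**
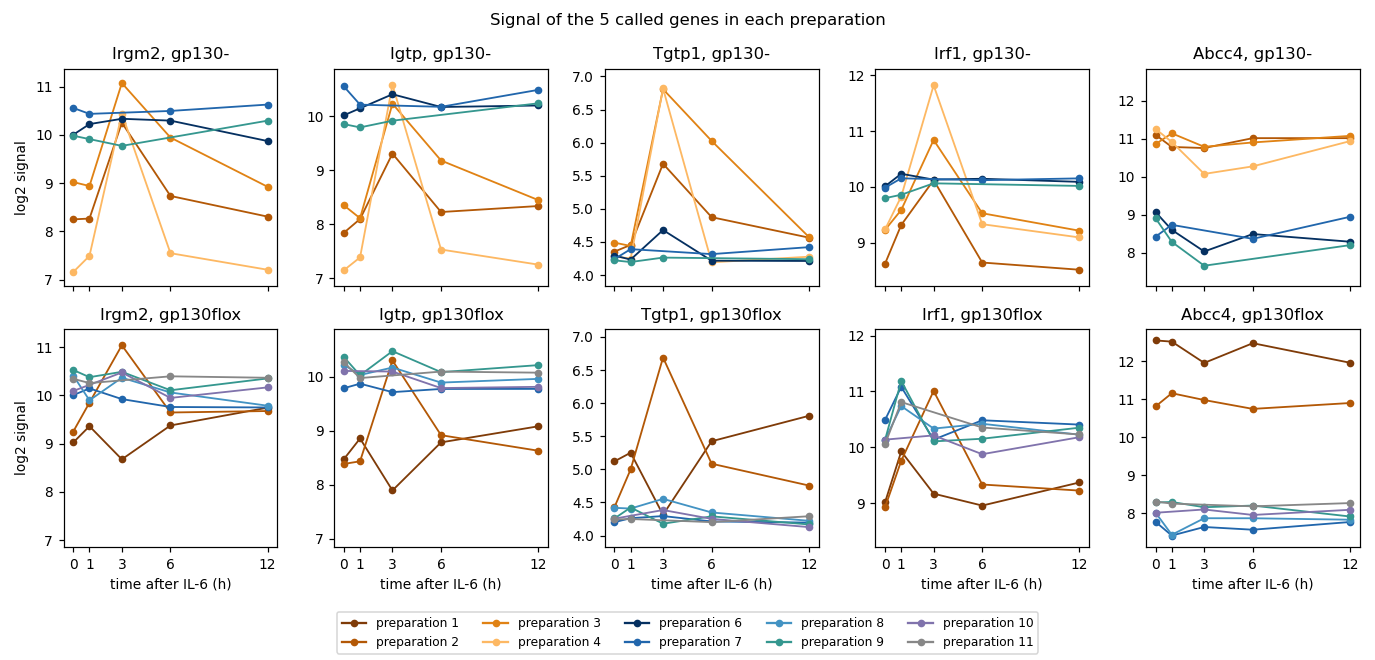
Log2 signal (vertical axis) against time after IL-6 in hours (horizontal axis) for the 5 called genes, 1 line per preparation, with gp130- in the upper row and gp130flox in the lower row. In gp130- preparations 2, 3 and 4 Irgm2, Igtp, Tgtp1 and Irf1 peak at 3 h, while preparations 6, 7 and 9 start high or, for Tgtp1, stay near background.

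For the 4 genes that rose, the change lay in preparations 2, 3 and 4. Irgm2 was higher at 3 h than at 0 h by 2.01, 2.05 and 3.29 there (log2), against changes of 0.33 in preparation 6 and -0.21 in preparation 9. For Irf1 the changes were 1.5, 1.61 and 2.58 in preparations 2, 3 and 4, and 0.12 and 0.27 in preparations 6 and 9. Igtp gave 1.46, 1.88 and 3.43, against 0.39 and 0.06. Tgtp1 was higher by 2.32 in preparation 3, and against the lowest detected signal of the 0 h array by at least 1.197 in preparation 2 and 2.27 in preparation 4. In preparation 6 its 3 h signal was below that floor, and in preparation 9 it was detected at neither time. Preparation 4 had the largest change of Irgm2, Igtp and Irf1.

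In a separate fit of the 36 arrays with numbers 6 to 11, limma called 0 genes (0%), and the smallest adjusted p was 0.300. At an unadjusted p under 0.05 there were 1215 genes. With the fold threshold as well, 179 genes were higher and 327 lower, from 2 arrays at 3 h and 3 at 0 h. Irgm2 gave 0.02 (adjusted p = 0.978), Igtp 0.13 (adjusted p = 0.793), Tgtp1 0.26 (adjusted p = 0.478) and Irf1 0.20 (adjusted p = 0.684).

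The fit of the 25 arrays with numbers 1 to 4 called 3 genes (0.0247% of those tested), all higher. Irgm2 rose by 2.45 (adjusted p = 0.0155) and Irf1 by 1.90 (adjusted p = 0.0198) on the log2 scale. The third was Fam229b, a gene of little known function, with 0.72 (adjusted p = 0.0198), beside 0.61 (adjusted p = 0.590) within numbers 6 to 11. Its signal was 6.11, 6.21 and 6.30 at 3 h in preparations 2, 3 and 4, against 5.56, 5.64 and 5.27 at 0 h. Igtp and Tgtp1 gave 2.26 (adjusted p = 0.142) and 2.06 (adjusted p = 0.283) in this smaller fit.

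The difference between the sets was tested in a single fit, as the change in numbers 6 to 11 minus that in numbers 1 to 4. It called 1 gene (0.00823%), Irgm2, with -2.43 on the log2 scale (adjusted p = 0.00374). Irf1 differed by -1.70 (adjusted p = 0.0594), Igtp by -2.13 (adjusted p = 0.175), Tgtp1 by -1.80 (adjusted p = 0.619) and Fam229b by -0.11 (adjusted p = 0.998), none past the threshold. Across the 12157 genes the changes within the 2 sets correlated with r = 0.23, and between single gp130- preparations r lay between -0.07 and 0.23, given as a description over genes that are not independent.

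The preparations also differed in what else they expressed. The mean log2 signal of 10 tested hepatocyte markers in gp130- preparations 6, 7 and 9 was 11.16 to 11.28 at 3 h and 11.02 to 11.15 at 0 h, and in preparations 2, 3 and 4 it was 8.65 to 8.93 at 3 h and 8.87 to 8.94 at 0 h. The probe of Alb, which encodes albumin and whose promoter drives the Cre, was detected on all 5 of these arrays of preparations 6, 7 and 9, and on 1 of 3 arrays at 3 h and 0 of 3 at 0 h in preparations 2, 3 and 4. This probe was dim, with a mean log2 signal of 5.39 at 3 h and 5.24 at 0 h in gp130-. Ambp, another hepatocyte marker, had 14.03 and 14.15. How well the Alb probe reports albumin RNA was not tested. The mean over 14 Kupffer cell and leukocyte markers was 7.89 to 8.01 at 3 h and 7.43 to 7.80 at 0 h in preparations 6, 7 and 9, and 5.42 to 7.33 at 3 h and 5.28 to 7.40 at 0 h in preparations 2, 3 and 4. All 14 were detected on some 3 h array, and all 14 on some 0 h array. Within preparations 6, 7 and 9 alone, 2 of the 14 were detected on no 3 h array and 2 on no 0 h array. By summed signal these 14 overlapped between the sets. At 3 h the sums were 6824 to 8085 in preparations 6 and 9 and 1858 to 8609 in preparations 2, 3 and 4. At 0 h they were 5638 to 7062 in preparations 6, 7 and 9 and 1618 to 9290 in preparations 2, 3 and 4. The mean log2 signal over 13 endothelial markers was higher in preparations 6, 7 and 9 (6.16 to 6.63 at 3 h, 5.98 to 6.596 at 0 h). In preparations 2, 3 and 4 it was 4.94 to 5.41 at 3 h and 4.86 to 5.58 at 0 h. The means of stellate cell, fibroblast and cholangiocyte markers went the other way, with many of these markers undetected in preparations 6, 7 and 9. Of the 10 tested stellate cell and fibroblast markers, 5 were detected on no 3 h array there and 3 on no 0 h array. Of the 6 tested cholangiocyte markers, 4 were detected on no array there at either time. These means thus include signals near background. The mean over 10 stellate cell and fibroblast markers was 5.73 to 5.79 at 3 h and 5.78 to 5.84 at 0 h in preparations 6, 7 and 9, and 6.21 to 6.80 at 3 h and 6.26 to 6.89 at 0 h in preparations 2, 3 and 4. For 6 cholangiocyte markers it was 5.24 to 5.31 at 3 h and 5.16 to 5.32 at 0 h in preparations 6, 7 and 9, and 6.00 to 6.67 at 3 h and 6.07 to 6.84 at 0 h in preparations 2, 3 and 4. In such bulk RNA fewer cells of a type and less RNA per cell cannot be told apart, and the part of other cells in the changes at 3 h was not tested.

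At the other times the 4 genes were not called. Averaged over gp130- preparations with the same block, the log2 change of Irgm2 was 0.05 at 1 h, 1.47 at 3 h, 0.33 at 6 h and 0.04 at 12 h. Irf1 gave 0.35, 1.22, 0.08 and 0.03 at these times, Igtp -0.00, 1.38, 0.21 and 0.20, and Tgtp1, mostly undetected, 0.01, 1.32, 0.32 and 0.07. These comparisons share the 0 h arrays. At 1, 6 and 12 h limma called 0 genes each (0%), with 432 genes at an unadjusted p under 0.05 at 1 h, 845 at 6 h and 609 at 12 h.

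Of 45 interferon response genes on the list used here, 36 were tested and 4 rose, against 0.0329% of all genes, and 0 fell. Ddx60, Gbp2b, Gbp5, Ifi44, Ifit1, Iigp1, Mx1 and Oas3 were among the untested ones. The median change of the 36 was 0.34 on the log2 scale, against -0.004 over all genes, and 32 of 36 (88.9%) were above 0, against 48.8% of all genes. At an unadjusted p under 0.05, 16 of 36 (44.4%) were higher, against 3.53% of all genes. The list was written with earlier results of these data known and holds the 4 called genes. These counts and shares are therefore not independent evidence. Within numbers 6 to 11 the median was 0.11 and within numbers 1 to 4 it was 0.39.

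The other tested genes of the list did not pass the test. Psmb9, an immunoproteasome subunit, had 6.24, 7.02, 7.42, 8.24 and 8.73 at 3 h and 6.00, 6.37, 5.58, 7.78, 8.08 and 8.13 at 0 h (log2 signal). It was higher at 3 h in all 5 preparations with both times, with a difference of 0.74 ± 0.16 (SE) that missed the threshold (adjusted p = 0.0752). Across all genes, 3.16% were higher and 4.06% lower in all 5 preparations. Tap1, a subunit of the peptide transporter of the endoplasmic reticulum, gave 0.67 (adjusted p = 0.225). Psmb8, another immunoproteasome subunit, gave 0.26 (adjusted p = 0.504), and Psmb10, which belongs to the same particle but not to the list, 0.45 (adjusted p = 0.313). B2m, the light chain of class I molecules, gave 0.05 (adjusted p = 0.870).

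Irf9, an interferon regulatory factor, gave 0.49 (adjusted p = 0.225) and Stat2 0.37 (adjusted p = 0.474). The GTPase genes Ifi47, Gbp2 and Irgm1 gave 0.97 (adjusted p = 0.316), 0.70 (adjusted p = 0.414) and 0.40 (adjusted p = 0.449), and Isg15, the ubiquitin-like modifier, gave 0.68 (adjusted p = 0.418). Cxcl10 and, outside the list, Cxcl9, chemokines that draw T cells, gave 1.19 (adjusted p = 0.355) and 0.89 (adjusted p = 0.355). None of these passed the test, although all had a positive value. Other members of the list were below 0, namely Eif2ak2 (-0.29), Ddx58 (-0.09), Irf2 (-0.06) and Oas2 (-0.02), and Ifih1 (0.01) and Usp18 (0.07) were near 0. B2m, Gbp2, Irgm1, Isg15, Psmb8, Eif2ak2, Ddx58, Irf2, Oas2, Ifih1 and Usp18 were named after their values had been seen. Among genes that encode interferons, the probes of Ifng, Ifnb1 and Ifna4 were detected on 0 of 61 arrays. Of the 3 probes of Ifna1, 1 was detected on 22 of 61 arrays (1 of 5 at 3 h and 3 of 6 at 0 h in gp130-), another on 14 (1 of 5 and 0 of 6) and the third on 0.

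Counted within each preparation, 6, 11 and 20 of the 36 genes were over 1.5-fold higher at 3 h in gp130- preparations 2, 3 and 4, against 0.222%, 0.395% and 4.02% of all genes. In preparations 6 and 9 the counts were 5 and 4, against 6.91% and 11.7% of all genes, and in preparation 9 another 7 were over 1.5-fold lower, against 12.9% of all genes. In gp130flox preparation 1, 10 were over 1.5-fold lower, against 11.7% of all genes. Among gp130flox preparations, number 2 had 14 (1.42% of all genes), number 7 had 5 (7.12%), numbers 1 and 10 had 2 each (14.7% and 4.85%) and numbers 8 and 9 had 1 each (3.89% and 4.01%). In gp130flox preparation 2 Irgm2 was higher by 1.79, Igtp by 1.91, Irf1 by 2.08 and Tgtp1, undetected at 0 h, by at least 2.19 (log2). The value of Irgm2 was below its lowest in gp130- preparations 2, 3 and 4, and those of Igtp and Irf1 were within their ranges. In gp130flox preparation 1 Irgm2, Igtp and Irf1 gave -0.35, -0.58 and 0.16. The 3 h array of that preparation stood apart, with an SD of its change of 0.64 over all genes, against 0.18 to 0.53 in the gp130- preparations.

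**Figure D2:**
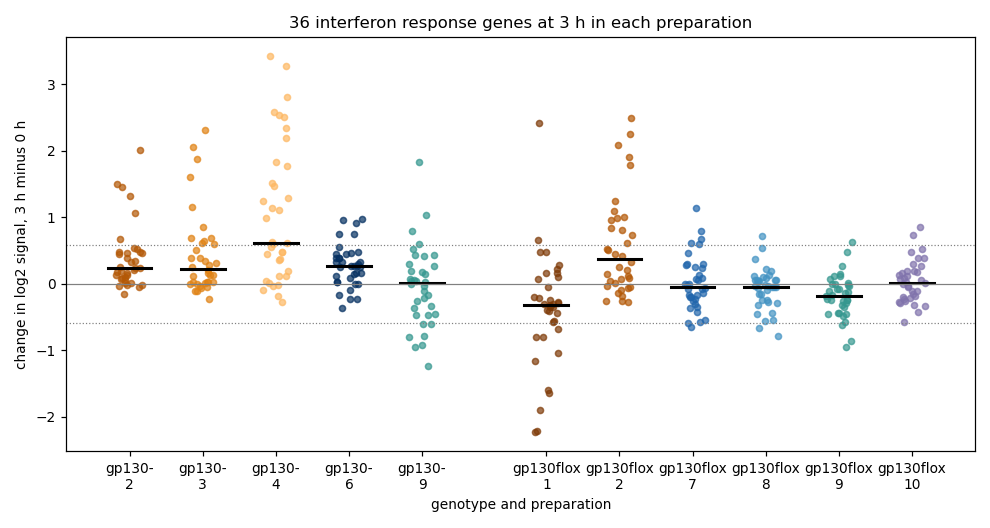
Change in log2 signal from 0 h to 3 h (vertical axis) of the 36 tested interferon response genes in each preparation (horizontal axis), gp130- left and gp130flox right, with 1 point per gene, black bars at the medians and dotted lines at 1.5-fold. Medians were 0.23, 0.23 and 0.62 in gp130- preparations 2, 3 and 4, 0.27 and 0.01 in preparations 6 and 9, and between -0.31 and 0.37 in gp130flox.

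Abcc4 gave log2 signals of 10.76, 10.79, 10.08, 8.03 and 7.66 at 3 h, against 11.11, 10.86, 11.26, 9.07, 8.43 and 8.91 at 0 h. It was lower at 3 h in all 5 preparations with both times, by 0.35, 0.07, 1.18, 1.04 and 1.25 on the log2 scale, while the level of a preparation differed more than that and the groups overlapped. Its fitted change was -0.70 ± 0.14 (SE; adjusted p = 0.0238), with -0.92 (adjusted p = 0.300) within numbers 6 to 11 and -0.53 (adjusted p = 0.992) within numbers 1 to 4. At 1, 6 and 12 h its changes were -0.19, -0.41 and -0.19.

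The genes next in order on the lower side did not pass the test. Agrn, which encodes the basement membrane proteoglycan agrin, gave -0.56 (adjusted p = 0.0623) and was lower in all 5 preparations. Stt3b, a catalytic subunit of the oligosaccharyltransferase, gave -0.51 (adjusted p = 0.173), Herc2, a ubiquitin ligase, -0.51, Supt6, a transcription elongation factor, -0.41, and Unc13b, a protein of vesicle priming, -0.62 (adjusted p = 0.355 each for the last 3). Reln, Pitpnm2, Wdr62 and Slc12a2 gave -0.64, -0.42, -0.28 and -0.52 (adjusted p = 0.355 each). Across 12146 genes with an annotated length, Spearman's rho of the change at 3 h with the length of the gene was 0.07, -0.08, -0.23, -0.09 and -0.27 in gp130- preparations 2, 3, 4, 6 and 9, and between -0.16 and 0.21 in gp130flox, and the part of length in these values was not tested.

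In gp130flox 79 genes rose (0.65% of those tested) and 13 fell (0.107%), together 0.757%, and of these 92 none was called in gp130-, where 0.0411% of all genes were. The 79 genes had a median change of 0.07 in gp130- and 0.84 in gp130flox, and the 13 genes had 0.03 in gp130- and -0.72 in gp130flox (log2). The difference of the changes, gp130- minus gp130flox, was called for 32 of the 79 and 2 of the 13, and for 41 of all genes (0.337%), 4 higher and 37 lower (0.304%). The 79 and the 13 were picked by their gp130flox change, which is part of that difference. Their share of called differences and their gp130flox medians are therefore favored by the choice and are not independent evidence. Across all genes the 2 changes correlated with r = 0.11, as a description.

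Socs3, the feedback inhibitor of gp130 signaling, had 5.50, 5.95, 6.00, 6.03 and 7.47 at 3 h, against 5.37, 5.74, 5.26, 6.26, 6.18 and 7.01 at 0 h in gp130- (log2 signal). The groups overlapped, and its change was 0.28 (adjusted p = 0.753), against 3.13 in gp130flox (adjusted p = 6.39e-15), with a difference of -2.85 (adjusted p = 1.33e-07). Timp1, an inhibitor of matrix metalloproteinases, gave 0.19 in gp130- and 2.26 in gp130flox, a difference of -2.08 (adjusted p = 0.000311). Bcl3, a nuclear cofactor of NF-kappaB, gave 0.20 and 1.71, a difference of -1.51 (adjusted p = 4.21e-05), and Nfkbiz, another one, 0.18 and 0.94, a difference of -0.76 (adjusted p = 0.0456), gp130- given first. These 4 belong to a list of 8 genes used here for the co-expressed cluster of the study, whose text does not spell out every member and also places Cish and Il13ra1 there. Hamp, Saa3, Lcn2 and Cxcl1, the other genes of the list, gave 0.33, 0.34, 0.03 and -0.03 in gp130- (adjusted p from 0.746 to 0.976), and their differences from gp130flox were not called (-0.79, -0.22, -0.53 and -0.51). Of the 8 genes, 0 were called in gp130- by limma, against 0.0411% of all genes, with 0 at an unadjusted p under 0.05, against 9.03% of all genes. For 8 genes a count of 0 is near these shares. The cluster was chosen on these samples, so this count is not independent evidence.

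Other genes with a large called difference were Tgm1 (-1.77), a transglutaminase, Tpbg (-1.63), a membrane glycoprotein, and Noct (-1.53), a clock-linked phosphatase. Their changes in gp130- were -0.13, -0.34 and -0.01, against 1.64, 1.28 and 1.52 in gp130flox. The 4 positive differences were those of Lurap1l (1.04), Nr1i2 (0.90), the xenobiotic receptor PXR, Ppfibp2 (0.77) and Cenpn (0.74), a centromere protein. In gp130- they gave 0.08, 0.39, 0.16 and 0.29, none called, against -0.96, -0.51, -0.61 and -0.44 in gp130flox.

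The 5 genes called in gp130- had no called difference between the genotypes. For Irgm2 the difference of the changes was 1.19 (adjusted p = 0.213), with 1.47 in gp130- and 0.27 in gp130flox. Igtp differed by 1.19 (adjusted p = 0.217), Tgtp1 by 1.05 (adjusted p = 0.297), Irf1 by 0.85 (adjusted p = 0.336) and Abcc4 by -0.58 (adjusted p = 0.217). A p that misses the threshold does not show that the genotypes responded alike. Preparations with both times were 2, 3, 4, 6 and 9 in gp130- and 1, 2, 7, 8, 9 and 10 in gp130flox. The sets of numbers are thus mixed unlike in the genotypes, and their part in these differences was not tested. In gp130flox Irgm2 gave 1.79 in preparation 2, -0.35 in preparation 1 and between -0.08 and 0.38 in preparations 7, 8, 9 and 10.

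Of the 79 genes that rose in gp130flox, 3 were over 1.5-fold higher in gp130- as well, against 24 of all 12157 genes, without passing the test there. Ccl4, a chemokine of macrophages and other leukocytes, had 8.57, 9.29, 7.84, 9.995 and 9.96 at 3 h, against 8.01, 8.91, 6.29, 9.63, 9.82 and 9.24 at 0 h in gp130-. It was higher at 3 h in all 5 preparations with both times, by 0.72 ± 0.16 (log2, SE; adjusted p = 0.111), against 0.76 ± 0.15 in gp130flox (adjusted p = 0.00146), and the difference of the changes was -0.04 (adjusted p = 0.979). Mt2, a metallothionein, gave 0.68 (adjusted p = 0.512) in gp130- and 1.40 in gp130flox, and Serpina3f, a serine protease inhibitor named after its values had been seen, 0.79 (adjusted p = 0.355) and 1.25.

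**Figure D3:**
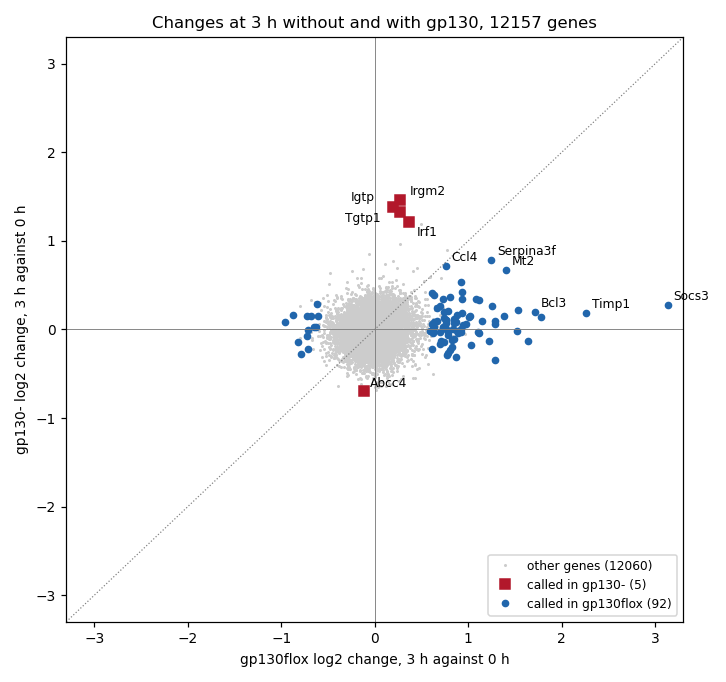
Log2 change at 3 h against 0 h in gp130- (vertical axis) and in gp130flox (horizontal axis) for the 12157 tested genes, with the 5 genes called in gp130- as squares, the 92 called in gp130flox as circles and all others in grey. The genes called in gp130flox were picked by their change on the horizontal axis. They lie along it, with medians of 0.07 and 0.03 in gp130-. The 4 genes that rose in gp130- lie between 0.20 and 0.36 in gp130flox. The sets of preparation numbers are mixed unlike in the genotypes.

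Over all genes 48.8% had a change above 0 in gp130-, and at an unadjusted p under 0.05 3.53% were higher and 5.5% lower. Among the other gene lists, 0 members were called by limma in gp130- in either direction, except that Irf1 also stands on the list of STAT3 targets (1 of 31 tested). That list had a median change of 0.10 in gp130-, against 0.75 in gp130flox, where 15 of the 31 rose. Positive acute phase genes had a median of 0.09 in gp130- (29 tested, 2 higher at an unadjusted p under 0.05), against 0.36 in gp130flox, where 4 rose. For the gp130 receptor complex and Jak-STAT signaling the median was -0.02 in gp130- (26 tested, 1 higher and 1 lower unadjusted), against 0.14 in gp130flox, where 5 rose.

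Chemokines had a median of 0.23 in gp130- (23 tested), 21 of them above 0, with 6 higher at an unadjusted p under 0.05. Here the sets stood the other way round, with a median of 0.44 within numbers 6 to 11 and 0.10 within numbers 1 to 4. Kupffer cell and leukocyte markers had a median of 0.15 (14 tested, 12 above 0, 2 higher unadjusted), 0.36 within numbers 6 to 11 and 0.02 within numbers 1 to 4, and the part of such cells in the chemokine values was not tested. NF-kappaB targets had a median of 0.11 (28 tested, 4 higher unadjusted). Of 33 ribosomal protein genes 27 were above 0, with a median of 0.09. Of 29 immediate early genes 9 were above 0 (median -0.03, 2 lower unadjusted), and of 14 MAP kinase feedback genes 4 were above 0 (median -0.11, 3 lower and 1 higher unadjusted). The 2 lower immediate early genes of 29 are near the 5.5% of all genes.

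**Figure D4:**
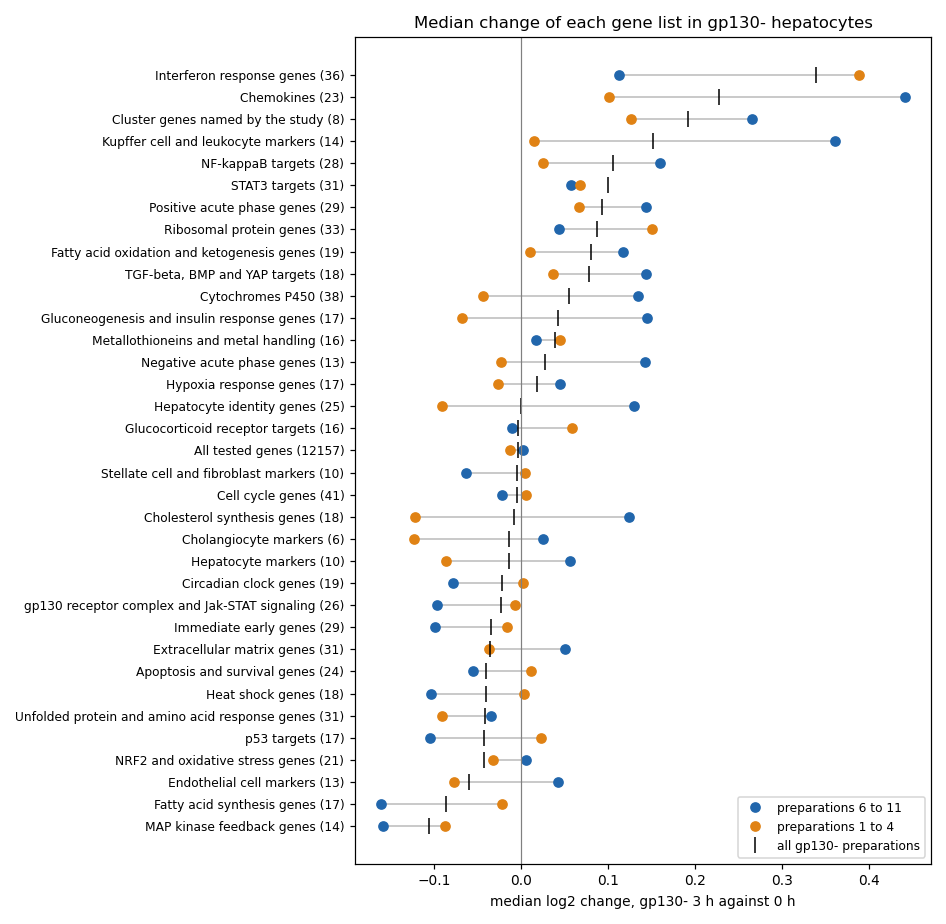
Median log2 change in gp130- at 3 h against 0 h (horizontal axis) of each gene list (vertical axis, number of tested genes in brackets), with circles for preparations 6 to 11 (blue) and preparations 1 to 4 (orange) and a black tick for the fit of all arrays. Chemokines (0.44) and Kupffer cell and leukocyte markers (0.36) lie highest for preparations 6 to 11, and interferon response genes (0.39) lie highest for preparations 1 to 4.

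The 5 calls rested on few arrays. Leaving out 1 array of gp130- preparation 2, 3 or 4, at 3 h or at 0 h, ended the calls of Irgm2, Igtp, Tgtp1 and Irf1, and Abcc4 alone stayed called when the array came from preparation 3. Without the 3 h array of preparation 4 their changes were 1.03, 0.89, 0.98 and 0.88 (adjusted p = 0.699 each). Without the replicate block that pairs arrays by preparation limma called 0 genes (smallest adjusted p = 1.00), and with the block and the gp130- arrays of 3 h and 0 h alone 0 as well (smallest adjusted p = 0.794), or those of all times (smallest adjusted p = 0.0769). Over all fits without 1 of the 11 arrays, the change of Irgm2 lay between 1.03 and 1.89, and that of Abcc4 between -0.80 and -0.59 with its call lost in 8 of them.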

How the data were processed

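Signals of 45281 probes on Illumina MouseWG-6 v2 arrays were deposited by the authors as linear, non-normalized intensity values from GenomeStudio 1.6.0, and each signal came with a detection p-value. A table of intensity values after the authors' cubic spline normalization was also deposited. It served as an alternative only, since its columns carry no preparation number.

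In R 4.3.3 with limma 3.58.1, neqc fitted the background from these detection p-values, with an offset of 16, followed by quantile normalization and log2. Probes detected (p under 0.05) on at least 5 of 61 arrays were kept, and 12157 genes were tested on their brightest probe. Arrays detected 15257 to 19256 probes, and their number and the dim signals limit the precision. A linear model (lmFit, eBayes) was fitted with 10 group means and the preparation as a block, on 40 residual degrees of freedom. The sets of numbers 1 to 4 and 6 to 11 were also fitted apart. The pairing follows the number in the deposited columns. Same-number arrays of gp130- at 3 h and 0 h deviated together from their group means (r = 0.927, 0.933, 0.866, 0.824 and 0.778 for preparations 2, 3, 4, 6 and 9). The highest r with another number was 0.843, 0.849, 0.274, 0.850 and 0.750, so that number 6 correlated better with number 7 than with its own. With the means of the sets removed, r was 0.735, 0.787, 0.850, 0.138 and 0.215. Identical arrays were looked for, and 0 pairs were found.

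The members, the sets and the 34 gene lists were chosen with earlier results of these data known. Named genes were all called genes, up to 10 with the smallest p per direction, up to 4 called or 2 leading members per list, Il6st, the 8 genes used for the study's cluster, and called genes of the sets and of the genotype difference. Alternatives were other normalizations, offsets, filters, weights, blocks, array subsets, thresholds and leaving out arrays. The test was tried on simulated data. Promoter windows came from RefSeq (GRCm38.p6).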

Additional observations from a re-analysis of the deposited data

Results flagged for a closer look

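Of 94 groups of log2 signals (47 named genes at 3 h and at 0 h in gp130-), 3 held an array far from the others by Dixon's criterion, and chance marks about 1 in 20. At 3 h, Fam229b was at 5.47 in preparation 9, against 6.11 to 6.30 in the others. Socs3 was at 7.47 in preparation 9 at 3 h, against 5.50 to 6.03, and its 0 h array of the same preparation was also high (7.01). Lcn2 was at 11.23 in preparation 4 at 3 h, against 9.26 to 9.50.

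The change at 3 h differed between the genotypes by the test of the difference itself for 11 named genes (gp130- minus gp130flox, log2). It was lower in gp130- for Socs3 (-2.85), Timp1 (-2.08), Tgm1 (-1.77), Tpbg (-1.63), Noct (-1.53), Bcl3 (-1.51) and Nfkbiz (-0.76), and higher for Lurap1l (1.04), Nr1i2 (0.90), Ppfibp2 (0.77) and Cenpn (0.74). Within gp130- the change of Irgm2 differed between the sets of preparations, by -2.43 for numbers 6 to 11 minus numbers 1 to 4.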

How the results depend on the processing

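The median change of the interferon response list stayed above 0, between 0.07 and 0.40, while the calls of its members did not hold. In gp130- at 3 h, 5 genes were called, 4 of them on the interferon list. The count was 3 (2 on the list) with an offset of 50, 0 with no detection filter, 12 (8 on the list) with array weights, 3 with the block as a random effect, and 0 (0 on the list) with gp130- arrays alone, with or without the block. Without the replicate block it was 0, and there were 0 calls for the genotype difference, 10 for gp130flox, 0 within numbers 1 to 4 and 0 for the set difference. Leaving out 1 array gave 0 to 6 calls, 0 to 5 on the list, and 28 to 42 for the genotype difference.

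The genotype difference (41 genes) had 19 calls at a fold over 2, 62 at an adjusted p under 0.1 and 22 with the random block. For gp130flox (92) there were 198 without the fold threshold, 23 at a fold over 2 and 60 with an offset of 50. Within numbers 1 to 4 (3 genes) the count was 0 with an offset of 50 and 8 with array weights, and within numbers 6 to 11 (0 genes) it was 1 with an offset of 50. The set difference (1 gene) had 2 calls at an adjusted p under 0.1, 2 without background correction and 3 with an offset of 50.

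Genes near 0 turned their sign. With array weights Lcn2 gave -0.0323, Tgm1 0.0403 and Noct 0.13. Noct gave 0.12 without the block, with or without the other groups, and 0.00349 with the random block. Leaving out 1 array gave -0.0695 to 0.13 for Lcn2, -0.13 to 0.13 for Cxcl1, -0.46 to 0.0369 for Il6st and -0.10 to 0.16 for Noct. The causes were not tested.

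Some alternatives were chosen after seeing the data. Without gp130- preparation 4 there were 0 calls, 0 on the list, and Lcn2 gave -0.0556 and Cxcl1 0.12. On the authors' spline-normalized table, with no replicate block, there were 0 calls in gp130-, 0 on the list, 2 for the genotype difference and 10 in gp130flox, and Noct gave 0.12. That table with the block was not run, since its columns carry no number. Dim signals and 2 arrays at 3 h in numbers 6 to 11 limit what can be seen.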
